A study of Mus musculus with 12 samples.

Results

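Casp1, Casp4 and Casp12 encode the inflammatory caspases of the mouse, and their rows were followed through the serum RNA libraries of normal mice and mice with colorectal cancer. The 3 rows were taken by name from 53546 gene rows. Casp4 and Casp1 had been picked because an earlier look at these same files showed them higher in colorectal cancer, and Casp12 because it lies beside them. The difference between the groups in these rows is therefore described here without a test. Total RNA of mouse serum was sequenced, with 6 samples per group and a single tissue label, serum, shared by all. The labels name the animals only as normal or colorectal cancer and call the samples biological replicates. For strain, age, sex and the way the tumours arose, nothing is given in the sources used here. The files for replicates 5 and 6 of the cancer group were identical in every value, both under the column name of replicate 6. They were counted as 1 sample, replicate 6, which left 6 normal and 5 colorectal cancer libraries.

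Inflammatory caspases are cysteine proteases that cut after aspartate and answer to microbes and damaged cells rather than running apoptosis. Caspase-1 is switched on by inflammasomes, complexes that gather on a sensor protein and the adaptor encoded by Pycard, and it matures interleukin-1 beta and opens the pore protein gasdermin D. The product of mouse Casp4, widely known in older work under another caspase number, binds lipopolysaccharide of Gram-negative bacteria directly inside the cell and cuts gasdermin D without an inflammasome. Casp12 encodes a protein linked to the endoplasmic reticulum, whose function is less settled. In blood, neutrophils and monocytes are the cells best known for these proteins, and interferon and NF-kB signalling raise Casp4 transcription.

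The 3 genes lie head to tail on the plus strand of chromosome 9 of mm10, within 74516 bases from 5298517 to 5373032. Casp1 spans 5298517 to 5307265, Casp4 5308828 to 5336783 and Casp12 5345430 to 5373032, with 1562 bases between the first pair and 8646 between the second. The annotation holds 0 other genes that overlap any of them on either strand. The annotated transcripts of the 3 genes share no stretch of 50 bases, and the longest run in common was 12 bases between Casp1 and either of the others and 21 bases between Casp4 and Casp12. A read with 50 exactly matching bases therefore points to a single member.

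The promoters are shown because the neighbours Casp1 and Casp4 differed between the groups side by side while Casp12 had few counts and overlapping groups. Each is the 250 bases before the RefSeq transcript start (GRCm38.p6, the assembly of mm10), 5′ to 3′ on the plus strand. RefSeq places the starts of Casp4 and Casp12 somewhat inside the gene bounds given above, and Casp4 has a second RefSeq start 11 bases further on. Capitals mark matches to any of 4 motifs, searched on both strands. The windows are chr9:5298267-5298516 for Casp1, chr9:5308599-5308848 for Casp4 and chr9:5345226-5345475 for Casp12.

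Casp1: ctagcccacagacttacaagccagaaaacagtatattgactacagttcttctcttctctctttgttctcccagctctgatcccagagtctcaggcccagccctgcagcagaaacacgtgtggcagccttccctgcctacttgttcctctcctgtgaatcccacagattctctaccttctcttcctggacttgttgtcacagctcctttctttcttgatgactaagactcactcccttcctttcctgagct

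Casp4: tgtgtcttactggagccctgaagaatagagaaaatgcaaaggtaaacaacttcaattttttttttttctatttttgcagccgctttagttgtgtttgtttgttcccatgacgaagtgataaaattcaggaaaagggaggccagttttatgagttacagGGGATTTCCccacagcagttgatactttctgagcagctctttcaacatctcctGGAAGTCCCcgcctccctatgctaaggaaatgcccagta

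Casp12: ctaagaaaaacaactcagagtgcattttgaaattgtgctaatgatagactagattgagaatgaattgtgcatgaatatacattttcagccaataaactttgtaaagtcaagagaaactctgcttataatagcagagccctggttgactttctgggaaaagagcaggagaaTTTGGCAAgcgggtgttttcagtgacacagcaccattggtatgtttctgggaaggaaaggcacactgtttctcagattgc

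In the Casp4 window the NF-kB motif GGGANTTCC matched at 2 places, 92 to 84 bases before the start and, on the other strand, 39 to 31 bases before it. Of 32851 promoter windows of this length 1.43% held that motif at least once and 0.0639% (21 windows) at least 2 times. The Casp12 window held the C/EBP motif TTGCNNAA once, 80 to 73 bases before the start on the other strand (9.56% of all windows hold it). In the Casp1 window none of the 4 motifs matched, the other searched motifs being the interferon regulatory factor motif, GAAA on either side of 2 unspecified bases (2.98% of all windows) and the AP-1 motif TGANTCA (6.75%). The GC content was 49.2% for Casp1, 41.6% for Casp4 and 39.2% for Casp12, against a median of 52.4% over all windows. These matches describe letters in the windows and are not evidence of binding. The motifs were chosen after the sequences were seen, so nothing is read from how rare a match is.

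The libraries held 2889205 to 20774889 counts. A single row, named Olfr648 for an olfactory receptor, held 7969078 to 17324370 counts in 2 normal and 4 cancer libraries, and 3247 to 5150 counts elsewhere. Without it the totals were 2885958 to 7033966, and the 4 deepest of these were colorectal cancer libraries. Values per library are CPM, counts relative to library size, with the size scaled by TMM, a factor computed so that most rows stand level between libraries. Row names carry a limit. Several defining genes of blood cells stood at 0 throughout, among them 8 of 12 neutrophil markers (S100a8 and S100a9 included), 4 of 9 erythroid markers (Hbb-bs, Hbb-bt and Alas2 included) and the platelet genes Pf4 and Ppbp. Whether each row counts the gene of its name was not tested.

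Casp4 stood higher in every colorectal cancer library than in any normal one. In normal serum its row had 54.6 CPM at the lowest (replicate 6), a median of 66.1 and 99.25 at the highest (replicate 4), from 273 to 607 counts per library. In colorectal cancer it had 215 CPM in replicate 1, 168 in replicate 2, 190.5 in replicate 3, 168 in replicate 4 and 189 in replicate 6, from 1517 to 2802 counts. The groups did not overlap, and the lowest cancer library lay 68.5 CPM above the highest normal one. The means were 73.4 ± 19.6 CPM (SD, n = 6) in the normal group against 186 ± 19.5 (SD, n = 5) in the cancer group, a difference of 1.34 (SE 0.16) on the log2 scale or 2.53-fold. In bulk RNA of serum the source of the RNA is not known. More cells of a type, more RNA per cell and more RNA outside cells cannot be told apart.

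Casp1 showed a smaller difference in the same direction. Its row had 86.3 CPM in the lowest normal library (replicate 6), a median of 100.2 and 146 in the highest (replicate 4). In colorectal cancer it had 178.5 CPM in replicate 1, 168 in replicate 2, 199 in replicate 3, 159 in replicate 4 and 171 in replicate 6. These groups did not overlap either, but the gap between them was only 12.4 CPM, from normal replicate 4, which stood above the other normal libraries, to cancer replicate 4. The means were 106 ± 22.2 CPM (SD, n = 6) and 175 ± 15.1 (SD, n = 5), a difference of 0.72 (SE 0.13) on the log2 scale or 1.65-fold. Over all 9565 tested rows 1.54% had every colorectal cancer library above every normal one and 2.1% had every one below. The members were chosen on this contrast, so nothing is read from their place among these rows.

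The spread between libraries is given as found. The SD was 10.5% of the mean for Casp4 and 8.64% for Casp1 in colorectal cancer, and 26.6% and 20.9% in normal serum. The highest cancer library exceeded the lowest 1.28-fold for Casp4 and 1.25-fold for Casp1, and the normal libraries spanned 1.82-fold and 1.69-fold. Single libraries set part of this: without normal replicate 4 the SD of Casp1 was 11.9% of the mean and the span 1.32-fold, and without cancer replicate 3 they were 4.86% and 1.13-fold. For Casp4 the SD was 6.98% of the mean without cancer replicate 1. These spreads were not tested against each other, and the cancer libraries also held more Casp4 and Casp1 counts.

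Casp12 had few counts in both groups. Its row had 0 counts in normal replicate 2, where 3 counts (0.479 CPM) would be the limit that a count of 0 allows for counting error alone, and 8 to 19 counts in the other 5 normal libraries. In CPM the normal libraries ran from 0 through a median of 2.38 to 3.01 in replicate 4. In colorectal cancer the row had 2.80 CPM in replicate 1, 2.28 in replicate 2, 12.3 in replicate 3, 2.67 in replicate 4 and 4.59 in replicate 6, from 29 to 98 counts. Replicates 3 and 6 lay above the normal libraries and the other 3 within their range. The means were 2.0 ± 1.10 CPM (SD, n = 6) and 4.93 ± 4.22 (SD, n = 5), and without colorectal cancer replicate 3 the latter was 3.09 ± 1.03 (SD, n = 4). The log2 difference of 1.29 (SE 0.65) became 0.63 without that library, so the apparent size rested on replicate 3.

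**Figure D1:**
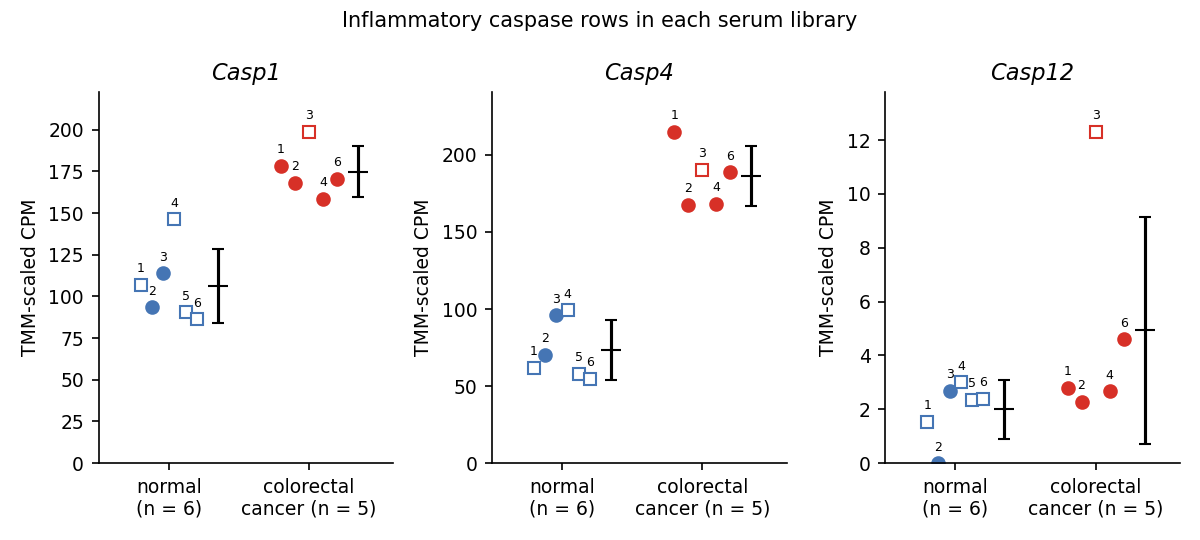
TMM-scaled CPM of Casp1, Casp4 and Casp12 in each library, by group, each panel on its own axis from 0. Filled circles are libraries with high counts in the row named Olfr648, open squares the others, numbers are replicates, and bars show mean ± SD (n = 6 normal, n = 5 colorectal cancer). Casp4 parts widely (up to 99.25 against 168 and above), Casp1 narrowly (up to 146 against 159 and above), and Casp12 overlaps apart from replicate 3 at 12.3 and replicate 6 at 4.59.

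The ratio of Casp4 to Casp1 counts within a library does not depend on how libraries are scaled. In normal serum it was 0.578 in the lowest library (replicate 1), 0.661 at the median and 0.844 in the highest (replicate 3). In colorectal cancer it was 1.20 in replicate 1, 0.998 in replicate 2, 0.958 in replicate 3, 1.06 in replicate 4 and 1.11 in replicate 6. The groups did not overlap, with means of 0.688 ± 0.096 (SD, n = 6) and 1.07 ± 0.096 (SD, n = 5). Casp4 counts thus went from below the Casp1 counts in 6 of 6 normal libraries to about level with them in colorectal cancer. The ratio comes from the rows and the contrast that chose the members and has no test. It also differed with the row named Olfr648 inside each group, as given below.

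**Figure D2:**
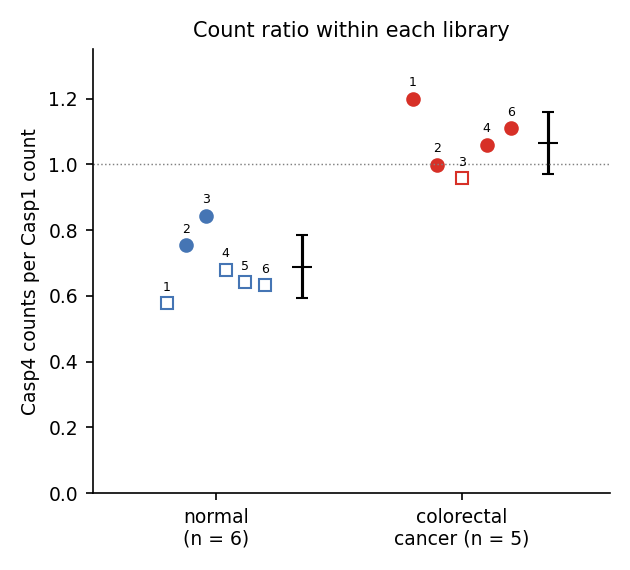
Casp4 counts per Casp1 count in each library, by group, with symbols and bars as in the plot of CPM by library; the dotted line marks equal counts. All 6 normal libraries lie at or below 0.844 and all 5 colorectal cancer libraries at or above 0.958.

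The division by the row named Olfr648 runs partly along the groups, so the members were read within it. Among the 6 libraries high in that row, Casp4 had 70.4 and 96.1 CPM in the 2 normal libraries and 168 to 215 in the 4 colorectal cancer libraries, and Casp1 had 93.4 and 114 against 159 to 178.5. Among the other 5, Casp4 had 54.6 to 99.25 CPM in the 4 normal libraries and 190.5 in the 1 colorectal cancer library, and Casp1 had 86.3 to 146 against 199. The log2 difference was 1.15 in the first set and 1.47 in the second for Casp4, and 0.71 and 0.88 for Casp1. The Casp4 to Casp1 ratio was 0.799 (mean of 2) against 1.09 (mean of 4) in the first set and 0.633 (mean of 4) against 0.958 (1 library) in the second. Inside the normal group the ratio was also higher in libraries high in that row, at 0.754 and 0.844 against 0.578 to 0.679. In colorectal cancer it was 0.998 to 1.2 against 0.958 in 1 library. The second set has 1 cancer library and so no spread within that group, and the part of the division in the difference was not tested. Casp12 differed by 1.19 and 2.39, the latter from replicate 3 alone.

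Scaling moved the size of these differences. With totals alone as the library size, and the Olfr648 row removed, the log2 difference was 1.73 for Casp4 and 1.11 for Casp1, and the median over all rows moved from 0.04 to 0.42. Relative to that median, Casp4 stood at 1.30 with TMM and 1.31 with totals alone, and Casp1 at 0.68 and 0.69. A change of library size shifts all rows nearly alike, so this follows from the subtraction. Differences are given relative to the TMM scale elsewhere.

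**Figure D3:**
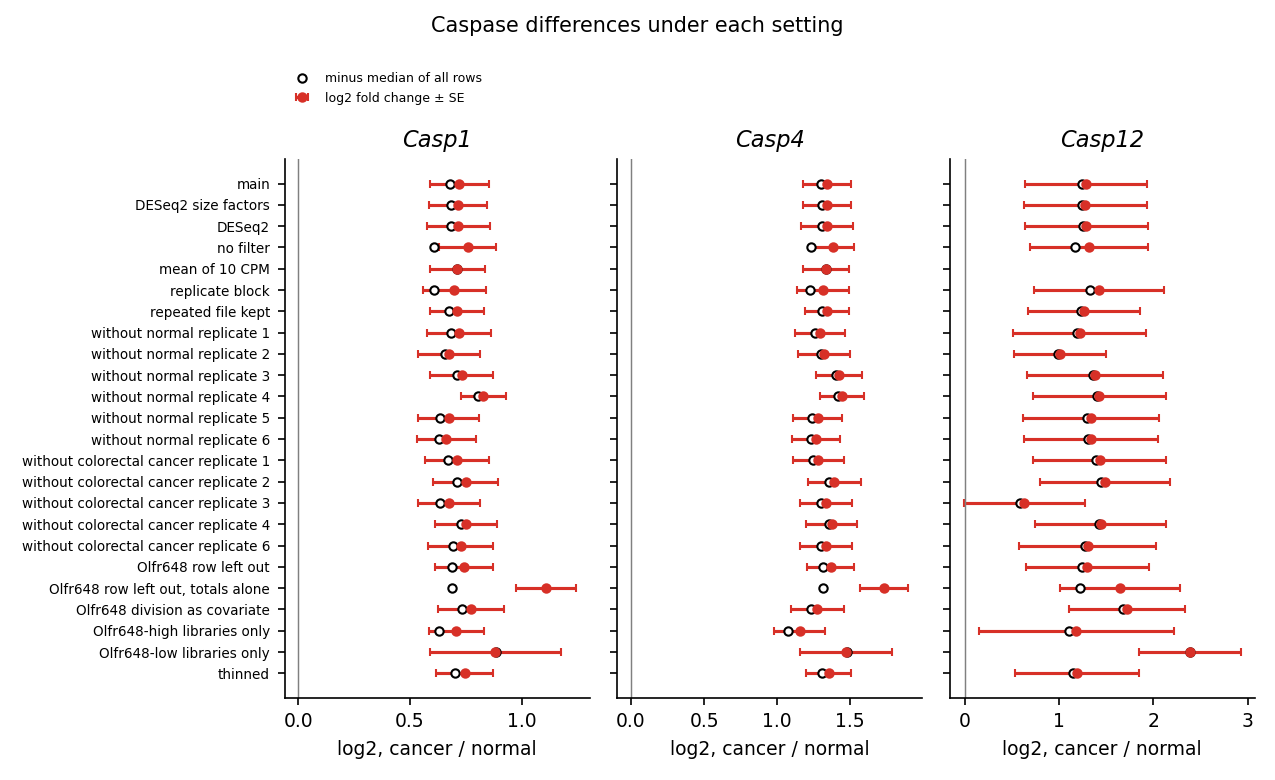
Log2 difference of each caspase row, colorectal cancer over normal, under every setting (red, ± SE) and after subtracting the median of all rows (open circles). Casp1 lies between 0.66 and 1.11 and Casp4 between 1.15 and 1.73, while Casp12 lies between 0.63 and 2.39 with long error bars; Casp12 has no value at a mean of 10 CPM, which it does not reach.

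The order of the members' levels depended on the length used. Per kilobase of all annotated exons (1497 bases for Casp1, 3710 for Casp4, 3840 for Casp12) the order was Casp1, Casp4, Casp12 in 11 of 11 libraries. The levels were 70.9 ± 14.8, 19.8 ± 5.27 and 0.520 ± 0.285 CPM per kb in normal serum (SD, n = 6) and 117 ± 10.1, 50.1 ± 5.25 and 1.28 ± 1.10 in colorectal cancer (SD, n = 5). Casp4 has 7 annotated transcripts and Casp1 has 1, which stretches the exon length of Casp4. Per kilobase of the longest coding sequence (1206, 1119 and 1257 bases) Casp1 still stood above Casp4 in 6 of 6 normal libraries, at 88.1 ± 18.4 against 65.6 ± 17.5. In colorectal cancer Casp1 then stood above Casp4 in 0 of 5 libraries, at 145 ± 12.5 against 166 ± 17.4. Casp12 was lowest on both lengths. On coding length the intervals of mean ± SD of Casp1 and Casp4 overlapped in both groups. These intervals ignore that both rows come from the same libraries, within which the order did not change inside a group.

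Variation inside the normal group did not choose the members and could be tested. Casp1 and Casp4 varied together over the 6 normal libraries, replicate 4 being highest and replicate 6 lowest in both. Pearson's r of log2 (CPM + 1) was 0.856 (two-sided exact permutation p = 0.0333, adjusted p = 0.1 over 3 pairs) and Spearman's rho 0.943 (exact p = 0.0167, adjusted p = 0.05), which did not fall under the threshold of 0.05 after adjustment. Without the 2 libraries farthest from the median of Casp1 the r was 0.694 over 4 libraries. Casp12 was not shown to vary with either. Its r was 0.383 with Casp1 (exact permutation p = 0.475, adjusted p = 0.712; rho 0.486, exact p = 0.356, adjusted p = 0.419). With Casp4 it was 0.21 (exact permutation p = 0.833, adjusted p = 0.833; rho 0.429, exact p = 0.419, adjusted p = 0.419). Without the 2 farthest libraries these were 0.442 and -0.958 over 4 libraries, the second with its sign turned. Rows of a library share its scaling factor, and no such correlation was computed over the 5 colorectal cancer libraries.

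Among 2939 rows with a mean of at least 10 CPM, the row most like Casp1 over the 11 libraries was Casp4 (Pearson r = 0.959). Next came Sars2, a mitochondrial tRNA synthetase (0.934), Git2, which acts on Arf GTPases (0.927), and Rab37, a GTPase of vesicle secretion (0.927). For Casp4 the closest rows were Git2 (0.968), the histone deacetylase gene Hdac4 (0.965), the hedgehog transcription factor gene Gli3 (0.962) and Casp1 (0.959). Git2 stood at 97.2 ± 38.4 CPM in the normal group against 227 ± 28.5 in the cancer group (SD, n = 6 and 5), and Gli3 at 2.0 ± 1.75 and 29.5 ± 21.7. Gli3 reached the minimum of 10 CPM only through the cancer libraries, so its likeness to Casp4, itself picked for that difference, was fixed by both choices and is read as nothing more. Likeness over all libraries takes in the group difference, and all rows of a library share its scaling. Casp1 and Casp4 were both picked for that difference, so their likeness over all libraries was built in by the choice. After subtracting group means, the rows closest to Casp1 were Sem1 (0.963), Dnah1 (0.931), Irf5 (0.92) and Ces2a (0.904), and those closest to Casp4 were Vim (0.951), Gstt4 (0.947), Mef2b (0.938) and Slc25a22 (0.934). On that measure Casp4 ranked 42nd for Casp1 and Casp1 84th for Casp4, with r = 0.819. These likenesses may rest in part on normal replicate 4, where Casp1 and Casp4 were highest among normal libraries. Without that library the log2 difference rose from 0.001 to 0.525 for Ces2a and from 0.31 to 0.471 for Sem1. For Slc25a22 it rose from 0.363 to 0.677, but for Gstt4 only from 0.326 to 0.383. The correlations were not computed without that library. For Casp12 the closest rows over all libraries were Myo7a (0.862), Slc35e2 (0.854), Lipe (0.835) and mt-Tn (0.834). With group means subtracted they were Myo7a (0.902), Pcnx2 (0.885), Tgs1 (0.857) and Spata31 (0.843), with Casp12 resting on 336 counts in all 11 libraries. Casp12 was highest in colorectal cancer replicate 3. Without that library the log2 difference of Myo7a went from 0.118 to -0.005 and that of Slc35e2 from 0.26 to 0.162. That of Lipe went only from 0.305 to 0.269. The Casp12 likenesses were not computed without that library.

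Of the tested rows around the cluster, 0 passed the test as higher and 1 as lower. Of the 15 protein-coding rows annotated on each side, 12 were at 0 in all libraries, 7 had counts under the filter and 11 were tested. The test was edgeR's two-sided quasi-likelihood test, adjusted by Benjamini-Hochberg over all rows, with calls at 0.05. It called 0 of the 11 higher, against 0.565% of all tested rows, and 1 lower, against 1.45% (2.02% in either direction). At such rates 11 rows would hold few or no calls, so nothing is read from the 0. At an unadjusted p under 0.05, 2 were higher and 2 lower, against 5.73% and 5.65% of all tested rows. DESeq2 called 2 higher and 1 lower, against 2.21% and 3.25% of the 7326 rows to which it gave an adjusted p. In 2, Cwf19l2 and Mmp8, every cancer library lay above every normal one (1.54% of all tested rows), and in 1, Birc2, below (2.1%). Their median log2 difference was -0.04, beside 0.04 over all tested rows. The nearest tested rows lay 911.6 kb before and 1555.5 kb after the cluster, so the caspases were flanked by long stretches with few counts. On the near side of Casp1, the glutamate receptor gene Gria4 had 0.634 CPM in the normal group against 0.455 in the cancer group, and Msantd4 had 46.8 ± 3.16 and 45.1 ± 6.72. Beyond Casp12, the growth factor gene Pdgfd was at 0 in all normal libraries and had 0.575 CPM in colorectal cancer, and the protease gene Ddi1 had 0.082 and 0.048.

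Birc2, which encodes an inhibitor of apoptosis, was the row that fell, from 374 ± 57.1 to 263 ± 24.5 CPM (SD, n = 6 and 5; log2 difference -0.51, SE 0.11, adjusted p = 0.0353 by edgeR). Its call was lost without normal replicate 1 or 2 and without any 1 of the 5 colorectal cancer libraries (adjusted p 0.0592 to 0.0973 by edgeR). Mmp8, the neutrophil collagenase gene in the same stretch, had 205 ± 119 CPM in the normal group against 556 ± 119 in the cancer group (log2 difference 1.44, SE 0.41, adjusted p = 0.133 by edgeR). The splicing factor gene Cwf19l2 had 59.3 ± 7.40 and 78.2 ± 4.55 (log2 difference 0.40, adjusted p = 0.0724 by edgeR). Both were picked with their values known.

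**Figure D4:**
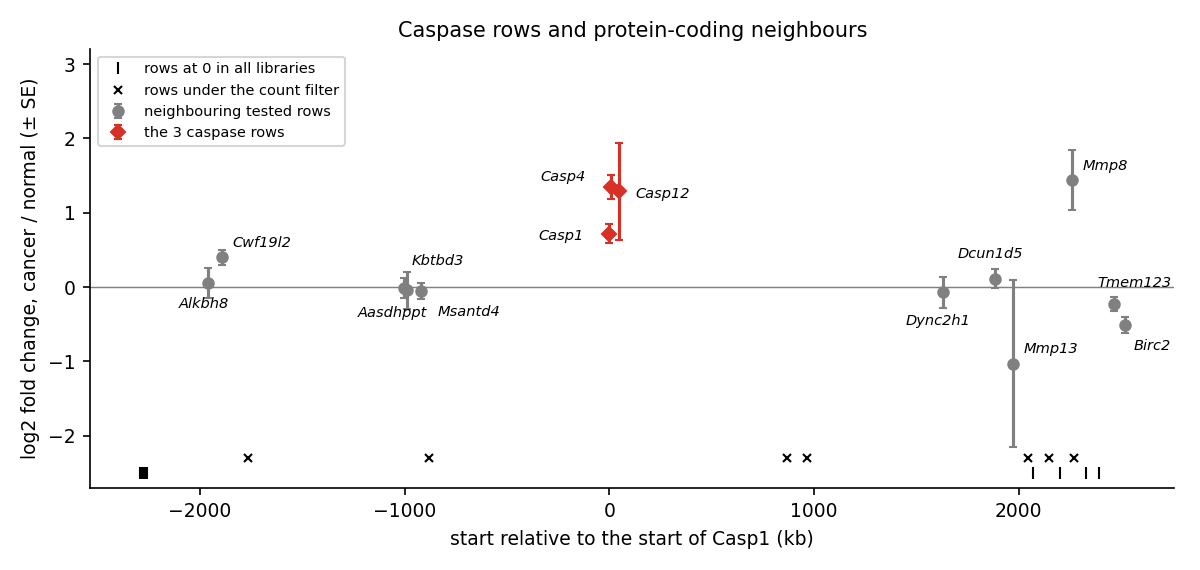
Log2 difference, colorectal cancer over normal (± SE), of the 3 caspase rows and the tested protein-coding neighbours, against the distance of each gene's start from that of Casp1 in kb; ticks and crosses along the bottom mark rows at 0 and rows under the count filter. Among the neighbours Mmp8 lies at 1.44 and Cwf19l2 at 0.40, and Birc2, the 1 that passed the test, at -0.51.

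Among the other genes of the pathway 0 rows passed the test as higher. The 9 lists of sensors, ligands, regulators and partners hold 122 genes, of which 120 have rows, 38 were at 0 in all libraries, 35 had counts under the filter and 47 were tested. By the same edgeR test 0 of the 47 were higher (0.565% of all rows) and 1 was lower, Birc2 (1.45% of all rows). At such rates 47 rows would hold few or no calls, so the count of 0 does not set the pathway apart. At an unadjusted p under 0.05, 7 of the 47 were higher, a larger share than the 5.73% of all rows. At the same threshold 1 was lower, a smaller share than the 5.65% of all rows. These shares were not tested against each other. DESeq2 called 2 higher, Il18r1 and Gbp7 (2.21% of the 7326 rows to which it gave an adjusted p), and 1 lower (3.25%). With totals alone in place of TMM 15 were higher and 0 lower, in step with the shift of all rows given above. The median log2 difference of the 47 was 0.19, beside 0.04 over all tested rows. Fitted differences ran from -0.90 for Gbp6 to 0.99 for the lipopolysaccharide receptor gene Tlr4, neither past the test.

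Of the sensors and adaptors of inflammasomes, 8 of 16 rows were tested and 0 were called (median log2 difference 0.18). Nlrp12, a sensor that dampens inflammation in myeloid cells, was the most abundant at 80.8 ± 22.5 CPM in the normal group against 117 ± 21.5 in the cancer group (adjusted p = 0.209 by edgeR, but 0.0378 without normal replicate 4). Nlrp1a had 25.6 ± 2.36 and 29.0 ± 5.05. Pycard, the adaptor that recruits caspase-1, had 21.3 ± 3.45 and 24.2 ± 1.07 and Nlrp3 10.1 ± 3.22 and 9.22 ± 2.28; both were picked with their values known. The sensor rows for pyrin (Mefv), Nlrp6 and Nlrp10 and the adaptor Card9 were at 0.

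The substrates were poorly covered. Gsdmd, the pore protein that both caspases open, was at 0 in all libraries, and of 9 gasdermin and membrane rupture rows 2 were tested and 0 called. Gsdme, which other caspases open, had 2.09 ± 1.07 CPM in the normal group against 3.0 ± 0.715 in the cancer group, and Chmp4b, a membrane repair gene, 4.85 ± 1.26 and 4.45 ± 2.03. Il1b, the cytokine gene that caspase-1 serves, had 9.17 ± 3.59 and 7.83 ± 1.68. Of 13 rows of the interleukin-1 family 4 were tested and 0 called (median 0.08). Il18r1, a receptor chain for another caspase-1 product, had 24.6 ± 9.41 CPM in the normal group against 44.6 ± 5.56 in the cancer group, its groups not overlapping (adjusted p = 0.134 by edgeR, 0.0308 by DESeq2).

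Upstream of Casp4, 4 of 13 rows for surface lipopolysaccharide sensing were tested and 0 called (median 0.38). The adaptor gene Ticam1 had 77.1 ± 14.3 and 78.4 ± 9.75 CPM and the kinase gene Irak2 5.21 ± 1.42 and 5.95 ± 1.82, while Myd88, Ly96 and Tlr2 were at 0. The 13 rows for guanylate-binding and immunity-related GTPases include some that help expose bacterial lipopolysaccharide to the caspase. Of the 13, 6 were tested and 0 called (median 0.15). Among them Gbp7 had 16.3 ± 1.86 and 22.4 ± 1.57 CPM, without overlap (adjusted p = 0.076 by edgeR, 0.00842 by DESeq2, and under 0.05 in 4 of the other alternatives). Those 4 were a mean of 10 CPM, thinning, the repeated file kept and totals alone. The repeated file enters 1 library again, and totals alone shifted all rows. Groups without overlap, higher in colorectal cancer, were seen in 2 of the 47 tested pathway rows, beside 1.54% of all tested rows. Irgm2 had 34.1 ± 1.82 and 36.1 ± 3.29. Of 16 rows for interferon and NF-kB regulators 4 were tested and 0 called (median 0.27). Stat2, which transmits interferon signals, had 249 ± 20.7 and 245 ± 8.15 CPM.

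The remaining lists concern caspases outside the inflammatory group, their inhibitors and the endoplasmic reticulum. Of 15 rows for apoptotic caspases and their platforms 5 were tested and 0 called (median 0.10). The caspase-like regulator gene Cflar had 155.5 ± 12.5 and 167 ± 11.3 CPM and Casp8ap2 109.6 ± 10.6 and 108 ± 4.66. Of 9 rows for caspase inhibitors and their antagonists 6 were tested, and Birc2, given above, was the 1 that passed (median -0.12 over both kinds). Of 16 endoplasmic reticulum stress rows 8 were tested and 0 called (median 0.24). Their most abundant members, the stress sensor genes Ern1 and Eif2ak3, had 196 ± 29.9 and 188 ± 29.2 CPM, and 13.7 ± 1.23 and 18.2 ± 3.59.

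**Figure D5:**
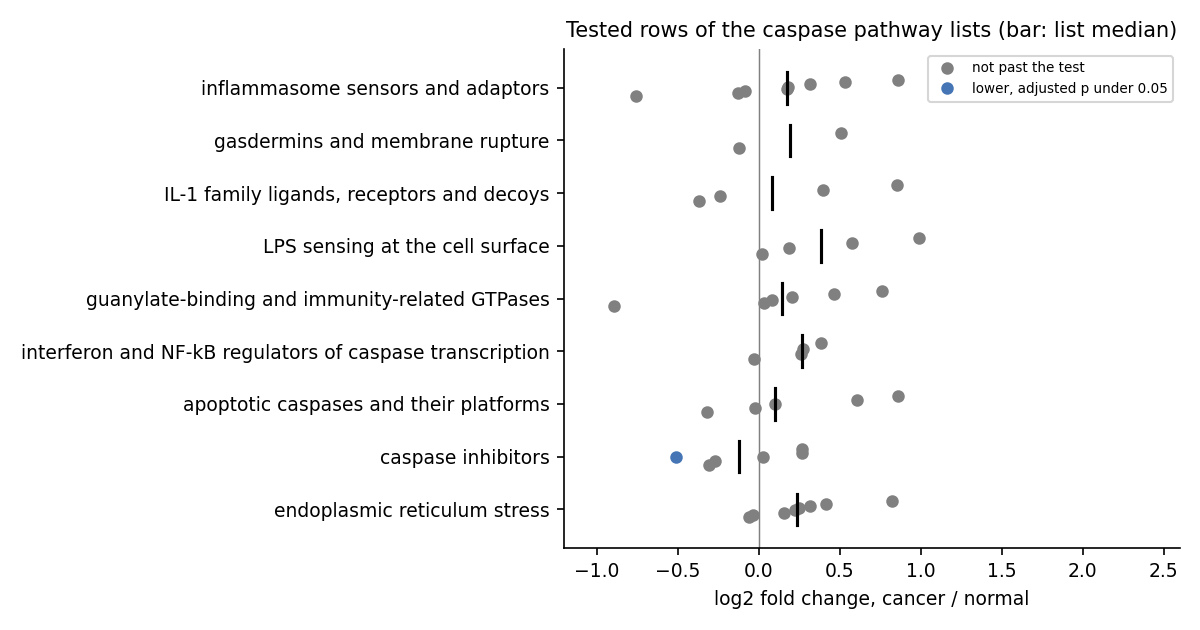
Log2 difference, colorectal cancer over normal, of the tested rows in each pathway list (grey, or blue for Birc2, which passed), and a bar at each list's median; the values run from -0.90 to 0.99.

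Markers of blood cells were summed per library for comparison with the caspases. Each sum rested mostly on 1 or a few rows. The neutrophil sum ran from 99.05 to 376 CPM in the normal libraries and from 406 to 711 in the cancer libraries, mostly Mmp8. Of its 12 rows 8 were at 0 and 2 were tested, and 0 passed (Mmp8, given above, and Mmp9 with a log2 difference of 0.25, adjusted p = 0.673 by edgeR). The monocyte and macrophage sum ran from 55.4 to 158 and from 57.9 to 178 CPM, mostly Ms4a6c (log2 difference 0.28, adjusted p = 0.925 by edgeR), with 3 of 11 rows (Csf1r, Ccr2 and Adgre1) at 0. Of its 5 tested rows 1 passed, the adhesion receptor gene Adgre4. Adgre4 stood at 13.6 ± 0.962 CPM in normal libraries and 20.7 ± 3.30 in cancer libraries, without overlap (log2 difference 0.60, adjusted p = 0.0385 by edgeR), and lost its call in 14 of 23 alternatives, 9 of them leaving out 1 library. Of the blood cell marker rows tested, Adgre4 was the 1 that passed as higher, where 0.565% of all tested rows were called higher.

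The erythroid sum ran from 383 to 678 CPM in normal libraries and from 99.9 to 242 in cancer libraries, mostly the row Tspan33. Of its 4 tested rows Tspan33 (log2 difference -1.54) and Hemgn (-1.74) fell (adjusted p = 0.00604 each by edgeR), while Hba-a1 stood at -0.02 and Epb42 at 0.06. The platelet sum ran from 598 to 1054 and from 175.5 to 568.2 CPM, nearly all Itga2b, which passed as lower (-1.21, adjusted p = 0.0375 by edgeR) and lost its call in 12 of 23 alternatives, 7 of them leaving out 1 library. The T cell sum ran from 319 to 510 and from 175 to 290 CPM, nearly all Cd3e, the 1 of 4 tested rows that passed as lower (-0.95, adjusted p = 0.0108 by edgeR). The B cell sum ran from 957 to 1469 and from 1079 to 1191 CPM with 2 of 7 rows at 0, and the NK cell sum from 17.1 to 25.4 and from 11.5 to 35.4 with 3 of 5 at 0, and 0 of their rows passed. Over all tested rows 0.565% were called higher and 1.45% lower. The part of these marker rows in the caspase difference was not tested.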

How the data were processed

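RNA was extracted from mouse serum with TRIzol and made into stranded total RNA libraries, per the labels' protocols. The deposited files hold whole-number read counts per gene symbol, taken as not normalized from the values. Trim Galore, HISAT2, StringTie and the build mm10 are listed in the submitters' processing notes without version, role or order. Annotation, counting method and strand option: not given in the sources used here. If counts came from transcript coverage, a count is not exactly a read.

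The repeated file was counted once, which left 11 libraries; every other pair of files differed in at least 12482 rows. Rows were filtered with filterByExpr by group, scaled by TMM and fitted with edgeR 4.0.16 in R 4.3.3 (robust glmQLFit, then glmQLFTest). Group was the sole term, and p-values of the 9565 tested rows were adjusted by Benjamini-Hochberg, with calls at 0.05. The procedure was also run on simulated data, with no outcome reported here. Positions and lengths come from GENCODE M21, an annotation of mm10, promoters from RefSeq. Correlations used exact permutation in SciPy 1.17.1 with a pseudocount of 1. Python 3.11.15, pandas 2.3.3 and Matplotlib 3.10.9 made tables and plots. Counting limits cover counting error only, and p-values judge a difference or correlation against variation among these samples only.

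The members, gene lists and tests were chosen with earlier results of these data known, and the promoter motifs after the sequences were seen. Pathway genes named are those past the test, or else each list's 2 most abundant tested members; neighbours named are those past the test and the 2 nearest with counts on each side; likeness names the 4 highest correlations. Some items that this rule or the motif search covered are not reported here. Mmp8, Cwf19l2, Pycard, Nlrp3, Gbp6, Tlr4, the marker rows and rows named as at 0, lie outside that rule. Alternatives were DESeq2 1.42.0, its size factors, other filters, a replicate block, both copies of the repeated file, leaving out each library, the row named Olfr648 left out or used as a division, and thinning to 2885958 counts. Where 1 library was left alone in its group, it was assumed to vary like the other group.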

Additional observations from a re-analysis of the deposited data

Results flagged for a closer look

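Over 87 groups of values there were 8 cases in which a highest or lowest library stood apart by more than Dixon's 95% limit. Chance flags about 1 in 20 groups. Casp12 in colorectal cancer replicate 3 stood at 12.3 CPM, and its gap to the next library was 0.769 of the group's range against a limit of 0.71 for 5 libraries. In the same library Gria4 stood at 1.51 CPM, Msantd4 at 56.6 and Slc35e2 at 63.4, each the highest of its group. Stat2 was lowest of its group in normal replicate 6 at 209 CPM. Sars2 was highest in normal replicate 4 at 351 CPM, the library where Casp1 and Casp4 were also highest among normal ones. Ddi1 was above 0 in a single library of each group, normal replicate 5 at 0.495 CPM and colorectal cancer replicate 2 at 0.24.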

How the results depend on the processing

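The log2 difference of Casp4 kept its sign in all 23 alternatives and that of Casp1 in all 23, from 1.15 to 1.73 and from 0.66 to 1.11. Both rows were picked for being higher in these same libraries, and their groups did not overlap. Refits of the same counts could therefore hardly turn the sign, and nothing is read from its being kept. Leaving out 1 library gave 1.27 to 1.44 for Casp4, 0.66 to 0.83 for Casp1 and 0.63 to 1.49 for Casp12. With totals alone and the Olfr648 row removed, Casp4 stood at 1.73 and Casp1 at 1.11, and within the libraries low in that row Casp12 stood at 2.39. Rows called higher, 54, and lower, 139, became 162 and 238 by DESeq2, 13 and 68 with the Olfr648 division as a covariate, 34 and 27 within the libraries high in that row, and 4 and 4 within the others. Higher rows became 112 with the repeated file kept and 1331 (against 100 lower) with totals alone. Without 1 library they ran from 16 to 67 and from 89 to 139; higher rows were 20 and 35 without normal replicates 2 and 6 and 16, 27, 20 and 16 without colorectal cancer replicates 1, 2, 4 and 6, and lower rows 89 without colorectal cancer replicate 4.

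Pathway members called higher, 0, became 2 by DESeq2, 1 at a mean of 10 CPM, 1 with the repeated file kept, 1 when thinned and 15 with totals alone. Neighbouring rows called higher, 0, became 2 by DESeq2, 1 at a mean of 10 CPM, 1 with the repeated file kept, 1 with the row named Olfr648 left out, 3 with totals alone and 1 within the libraries high in that row. The 1 lower call of each set, Birc2, became 0 with totals alone, with the division as a covariate, and within either side of it. Without 1 library the higher calls ran from 0 to 1 in the pathway (1 without normal replicate 4) and stayed 0 among neighbours, and the lower calls ran from 0 to 1 in each. With totals alone Stat2 and Casp8ap2 turned to 0.36 and 0.37, as all rows shifted. Of the rows most like Casp1 or Casp4, Git2 lost its call in 9 alternatives, Rab37 in 6, Gli3 in 5 and Hdac4 in 3. The cause of these changes was not tested.

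With the replicate block 6 rows were higher and 59 lower, and 0 pathway and 0 neighbouring rows were lower. Same-numbered libraries did not pair: their deviations from the group means correlated from -0.194 to 0.108 over 5 pairs, and 2 of 5 normal libraries correlated best with their own number. Depth limits Casp12, which 3 counts would set at 0.18 to 0.602 CPM per library.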
